A study of Mus musculus with 16 samples.

Results

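Genes that restrain inflammatory signalling were followed through the open chromatin of mouse bone marrow cells stimulated with interleukin-1β (IL-1β): Tnfaip3, Tnip1, Cyld, Zc3h12a, Traf1, Birc3 and Tank. They are 7 of 21887 protein-coding genes in the RefSeq table. Every consensus region that overlapped one of their gene bodies, widened by 10 kb on each side, was taken as a member. That gave 52 of 83972 regions, a consensus region being a stretch called as a peak in at least 2 of the 16 libraries.

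Inflammatory receptors, among them the IL-1 receptor, signal through chains of ubiquitin that assemble kinase complexes and release the transcription factor NF-κB. A20, the product of Tnfaip3, edits and removes such chains and is brought to them by ABIN1, the product of Tnip1, while the Cyld enzyme cuts the same chains. Regnase-1, made by Zc3h12a, acts later and degrades the messenger RNAs of cytokines. Traf1 and Birc3 encode members of the receptor-bound ligase complexes, an adaptor and the ubiquitin ligase cIAP2, and Tank encodes an adaptor of TRAF proteins and of the TBK1 kinase. Several of these genes are themselves known targets of NF-κB, so that signalling induces its own brakes.

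The cells came from the bone marrow of male C57Bl/6 mice and were depleted of cells bearing CD3, CD4, B220, Ter119 or Gr1. The labels name them haematopoietic stem cells, a rare part of such a lineage-negative fraction. Mice were either non-diabetic controls or had been made diabetic with streptozotocin, a toxin of insulin-producing cells, and 4 samples of each phenotype were divided. One portion was lysed at once as the baseline, and the other was cultured for 6 h with IL-1β at 10 ng/mL, so that IL-1β and culture cannot be told apart. Each of the 4 groups, control baseline, control IL-1β, diabetic baseline and diabetic IL-1β, therefore held 4 libraries. ATAC-seq, in which a transposase cuts accessible DNA, was run on 50000 cells per library, with fragments above 1200 bp excluded and 50-bp single reads. The values below are summit reads, the whole reads at the highest summit of a region, scaled so that all libraries had equal medians.

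A library held 37543 to 72525 peaks and 0.856 to 1.71 background reads per window. Regions near mature neutrophil genes were called in every library (32 to 57 of 61 regions), although Gr1-bearing cells had been depleted, and regions near stem and progenitor genes in 20 to 53 of 64. Regions near B cell genes were called in 9 to 21 of 26 and near T and NK cell genes in 6 to 14 of 19. Diabetic baseline replicate 4 stood apart. It had the lowest background and the lowest median of unscaled summit reads over regions called in all libraries (27, where the highest library had 58). Over the mature neutrophil regions called in all libraries its mean log2 summit reads were 4.91, against 5.44 to 5.81 in the other 7 baseline libraries. Its monocyte regions were also lowest (4.38, against 4.69 to 4.88), and its erythroid regions were highest (5.93, against 4.68 to 5.64). Calls and values that this library moved by much are given with and without it. In such bulk samples a region with fewer reads may be open in fewer cells or less open per cell, and the data cannot tell these apart.

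The promoters of 4 members are shown because their start regions behaved differently. Each run is the 250 bases before the RefSeq start on GRCm38.p6, which shares its coordinates with mm10, all on the minus strand and written 5′ to 3′. Capitals mark matches on either strand to the κB motif, the 10-base site bound by NF-κB, and to TGANTCA, the AP-1 site. Overlapping κB matches are merged into one capital run.
Tnfaip3, chr10:19015411-19015660: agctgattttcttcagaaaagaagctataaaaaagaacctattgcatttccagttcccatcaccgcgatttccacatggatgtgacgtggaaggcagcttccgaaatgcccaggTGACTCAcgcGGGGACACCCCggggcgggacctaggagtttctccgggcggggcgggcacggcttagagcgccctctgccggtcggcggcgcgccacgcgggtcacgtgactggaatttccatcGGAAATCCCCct
Tnip1, chr11:54962941-54963190: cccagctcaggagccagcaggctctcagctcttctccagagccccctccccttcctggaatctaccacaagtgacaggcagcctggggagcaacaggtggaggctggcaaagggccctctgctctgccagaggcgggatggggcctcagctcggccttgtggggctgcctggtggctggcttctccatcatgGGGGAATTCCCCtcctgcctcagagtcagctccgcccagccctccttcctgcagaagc
Zc3h12a, chr4:125127882-125128131: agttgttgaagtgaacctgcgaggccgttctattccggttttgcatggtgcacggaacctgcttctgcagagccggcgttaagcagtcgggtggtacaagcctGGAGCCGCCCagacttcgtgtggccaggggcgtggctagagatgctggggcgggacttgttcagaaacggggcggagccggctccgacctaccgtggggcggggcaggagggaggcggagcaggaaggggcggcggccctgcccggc
Birc3, chr9:7873171-7873420: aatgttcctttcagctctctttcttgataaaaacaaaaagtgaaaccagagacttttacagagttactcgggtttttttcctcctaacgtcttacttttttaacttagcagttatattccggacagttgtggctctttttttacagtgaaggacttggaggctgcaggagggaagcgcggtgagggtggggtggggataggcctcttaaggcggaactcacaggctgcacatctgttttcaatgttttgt
The Tnfaip3 promoter held 3 κB matches, 2 of them overlapping, and 1 AP-1 match. The Tnip1 promoter held 3 overlapping κB matches inside a single palindrome, GGGGAATTCCCC, 47 to 58 bases before the start. Zc3h12a and Cyld had 1 κB match each, as had the windows of all 4 Tank starts and the other Tnfaip3 start. The Tank windows overlap in pairs, and both windows of a pair hold the same κB site. The most downstream Tank window also held 1 AP-1 match. No match to either motif was found in the windows of Birc3 and Traf1. Of 32851 RefSeq promoters of this length 23.2% held at least 1 κB match, 5.49% at least 2, and 6.75% an AP-1 match, so a single κB match is common.

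IL-1β was followed by more reads at regions inside or just beyond 4 of the genes, Tnip1, Traf1, Zc3h12a and Tnfaip3, while the starts of Zc3h12a and Tnfaip3 had changes near 0. Of the 52 member regions, 18 were called in all 16 libraries and could be fitted. Over the mean of both phenotypes 7 of these 18 rose and 0 fell in limma at an adjusted p of 0.05. Among all 24955 fitted regions 6.42% rose and 3.4% fell. The members were chosen with earlier results of these data known, so the count describes them and does not test the set. The median log2 change of the 18 was 0.20, beside 0.03 over all regions. Of the 18, 14 lay above 0, as did 13876 of all 24955. Without diabetic baseline replicate 4 there were 9 that rose, with 11.1% of all regions, and blocking on the mouse gave 8, beside 9.62% of all regions. Scaling by each library's background instead of its median moved the median of all regions to -0.24 and that of the 18 to -0.07. Of the 18 only the Tnip1 region 26.6 kb from its start then still rose, with 0.813% of all regions, so the changes here are relative to the other regions. Markers of some mature cells moved too: regions near monocyte genes had a median change of 0.22 (2 of 12 rose, 0 fell) and those near mature neutrophil genes of 0.14 (4 of 26 rose, 1 fell). With the mouse block 5 of 12 monocyte and 5 of 26 neutrophil regions rose, and without diabetic baseline replicate 4 there were 1 and 4. Their medians without that library were 0.20 and 0.06. Near erythroid genes the median was 0.12 (0 of 15 rose), and 0.22 without that library (1 rose). Near B cell genes it was 0.04 (1 of 7 rose) and near T and NK cell genes 0.05 (0 of 6 rose). Without that library 2 and 1 of these rose. The median was -0.06 near stem and progenitor genes (0 of 15 rose). The part of cell composition in the members' changes was not tested. Each phenotype was represented by 4 mouse samples, whose spread is all that the p-values measure.

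**Figure D1:**
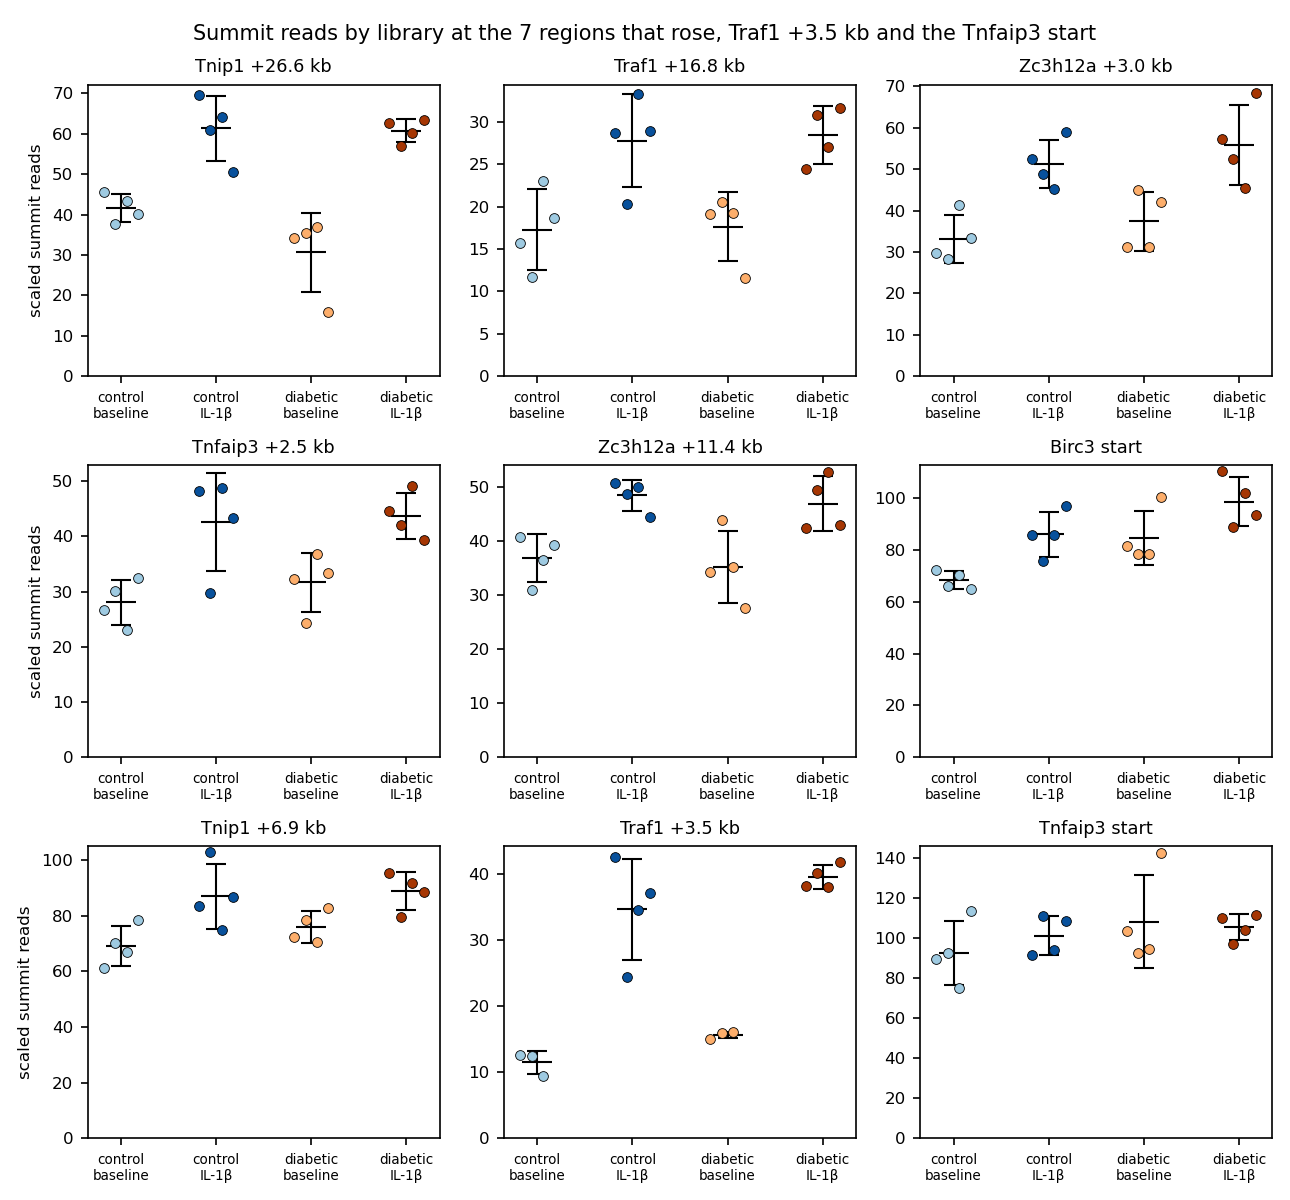
Scaled summit reads (vertical axis, linear, from 0) of each library (points) with the mean and SD of each group (bars), for the 7 regions that rose, for a Traf1 region called in 14 libraries and for the Tnfaip3 start. Distances are from the nearest gene start, positive along the gene, and replicate 4 of both baseline groups had no call at Traf1 +3.5 kb. At Tnip1 the 8 IL-1β libraries lie between 50.6 and 69.5 and all baseline libraries between 15.99 and 45.5, while at the Tnfaip3 start the groups overlap.

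Tnfaip3 had 4 regions. The region over its start, chr10:19014513-19015847, was among the most open of the members and did not pass the test. In control baseline libraries 1 to 4 it had 89.5, 92.7, 75.1 and 113.8 scaled reads, and with IL-1β 91.6, 111.0, 94.0 and 108.5. In diabetic baseline libraries it had 103.7, 92.5, 94.5 and 142.5, and with IL-1β 110.3, 97.2, 104.3 and 111.4. All 4 groups overlapped, and the log2 change was 0.06 (SE 0.09, limma adjusted p = 0.749). The region at chr10:19009012-19009821 rose. It lies inside the gene, 2546 bp past a second RefSeq start that is further in than the one just described. Its control baseline libraries had 26.7, 30.1, 23.0 and 32.4 scaled reads, and those with IL-1β 48.3, 29.8, 48.8 and 43.4. Its diabetic baseline libraries had 32.2, 24.3, 36.9 and 33.4, and those with IL-1β 44.6, 42.1, 49.1 and 39.3. Control mouse 2 was the 1 sample of 8 in which the IL-1β portion was not above its own baseline portion. The change was 0.53 on the log2 scale (SE 0.12, limma adjusted p = 0.00646), a 1.45-fold rise. The deposited fold over local background at the same summits did not follow it, with 7.05 ± 1.20 at baseline and 7.02 ± 1.03 with IL-1β (SD, n = 8). The local background implied by those values was 3.85 reads at baseline and 4.80 with IL-1β, before scaling. Summed over all summits of the region, the change was 0.20 (limma adjusted p = 0.571). The other 2 Tnfaip3 regions, one beyond the end of the gene and one 8.5 kb upstream, were each called in 3 of 8 baseline and 5 of 8 IL-1β libraries.

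Tnip1, whose protein links A20 to ubiquitin chains, held the member region with the largest change among those called in all libraries. The region at chr11:54935980-54936787 lies inside the gene, 26.6 kb from its start. In control mice 1 to 4 it had 45.5, 37.6, 43.3 and 40.2 scaled reads at baseline and 69.5, 60.9, 64.2 and 50.6 with IL-1β. In diabetic mice it had 34.2, 35.5, 36.9 and 15.99 at baseline and 62.6, 57.0, 60.1 and 63.3 with IL-1β. Every IL-1β library was above every baseline library, and it was higher in 8 of 8 mice. Such a separation was seen at 2 of the 18 member regions, the other being in Zc3h12a, and at 1.59% of all fitted regions. The log2 change was 0.81 (SE 0.13, limma adjusted p = 0.000253), and 0.66 (SE 0.08, limma adjusted p = 1.06e-06) without diabetic baseline replicate 4. The 15.99 scaled reads of that library were the lowest and came from 11 whole reads. In the deposited fold the region did not pass (log2 change 0.19, limma adjusted p = 0.329), with group means of 11.5 in control baseline, 9.74 in control IL-1β, 8.58 in diabetic baseline and 10.3 in diabetic IL-1β.

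A second Tnip1 region, 6.9 kb inside the gene at chr11:54955679-54956438, rose by a smaller amount. Its baseline libraries ranged from 61.2 to 82.9 scaled reads with a median of 71.5, and its IL-1β libraries from 74.9 to 102.9 with a median of 87.7. The ranges overlapped, and the log2 change was 0.28 (SE 0.08, limma adjusted p = 0.0225). It was higher with IL-1β in 8 of 8 mice, by log2 differences from 0.02 in diabetic mouse 2 to 0.55 in control mouse 2. The share of all regions higher in 8 of 8 mice is not given here, for this or the other regions with that count. Leaving out control baseline replicate 1, control IL-1β replicate 2 or diabetic IL-1β replicate 1 lost the call, with limma adjusted p-values of 0.0585, 0.0569 and 0.0506, and its deposited fold was lower with IL-1β (log2 change -0.09, adjusted p = 0.532). The Tnip1 start, the region over the palindrome printed above, was only weakly open. It was called in 7 baseline and 8 IL-1β libraries, with 12.6 ± 1.99 scaled reads (SD, n = 7) and 17.7 ± 3.24 (SD, n = 8). It lacked a call in diabetic baseline replicate 1, and a fit of the 40970 regions called in at least 12 libraries gave a log2 change of 0.47 (limma adjusted p = 0.0673). In that fit a region 9.5 kb upstream of Tnip1, also within 10 kb of the annexin gene Anxa6, rose by 0.57 (limma adjusted p = 0.0102). It lacked a call in diabetic baseline replicate 4, and the fit uses only libraries with a call.

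Zc3h12a, the gene of the RNase Regnase-1, had 9 regions, 5 of them called in all libraries. The region 3.0 kb inside the gene, chr4:125124609-125125152, rose in every mouse. In control mice 1 to 4 it had 29.8, 28.4, 41.3 and 33.4 scaled reads at baseline and 52.3, 48.7, 45.2 and 58.9 with IL-1β. In diabetic mice it had 31.2, 44.9, 31.2 and 42.2 at baseline and 57.3, 52.3, 45.4 and 68.4 with IL-1β. The lowest IL-1β library, at 45.2, was just above the highest baseline library, at 44.9. The log2 change was 0.61 (SE 0.11, limma adjusted p = 0.000837), and it passed the test within control mice and within diabetic mice. Its deposited fold was also higher with IL-1β, at 3.02 ± 0.670 and 3.78 ± 0.514 (SD, n = 8). A second region, 11.4 kb from the start and 1.5 kb beyond the end of the gene at chr4:125116116-125116908, had 27.6 to 43.9 scaled reads at baseline (median 35.9) and 42.4 to 52.7 with IL-1β (median 49.1). It was higher in 8 of 8 mice (log2 change 0.41, SE 0.10, limma adjusted p = 0.0105). It lies within 10 kb of Meaf6 as well, a gene of a histone acetyltransferase complex, so that its assignment to Zc3h12a rests on distance alone. The Zc3h12a start had 92.6 to 116.8 scaled reads at baseline and 92.5 to 119.0 with IL-1β, overlapping almost fully (log2 change 0.04, limma adjusted p = 0.815). The remaining 2 downstream regions had changes of -0.08 and -0.16 that did not pass.

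Traf1, which encodes an adaptor bound to the TNF receptor complex, showed the largest rise of any member in a region that was not called everywhere. That region, chr2:34958060-34958477, lies 3.5 kb inside the gene and was singled out after its values were seen. Control baseline libraries 1 to 3 had 12.6, 12.5 and 9.48 scaled reads, diabetic baseline libraries 1 to 3 had 15.1, 15.9 and 16.02, and replicate 4 of both groups had no call. With IL-1β the control libraries had 42.5, 24.4, 34.5 and 37.2 and the diabetic libraries 38.2, 40.2, 38.0 and 41.8. All 8 IL-1β libraries were above the 6 baseline libraries with a call. In the fit of regions called in at least 12 libraries the log2 change was 1.45 (SE 0.14, limma adjusted p = 8.9e-07), where 6.23% of all regions rose. That fit left out the baseline libraries without a call, and the region entered it through calls in 8 of 8 IL-1β libraries. As it was also picked by its values, the p-value describes the region and is no test of it. The change was 1.57 in control mice and 1.34 in diabetic mice. A neighbour directly beside it on the side of the start, chr2:34958542-34958914, was called in 3 of 8 baseline and 8 of 8 IL-1β libraries, with 12.4 ± 3.35 scaled reads (SD, n = 3) and 35.5 ± 4.98 (SD, n = 8).

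Within the set called everywhere, the Traf1 region 16.8 kb inside the gene, chr2:34944772-34945127, rose as well. In control mice 1 to 4 it had 15.7, 11.7, 23.0 and 18.7 scaled reads at baseline and 28.6, 20.3, 33.3 and 28.9 with IL-1β. In diabetic mice it had 19.1, 20.6, 19.2 and 11.6 at baseline and 24.4, 30.8, 27.0 and 31.7 with IL-1β. The groups overlapped only through control mouse 2 with IL-1β and 2 baseline libraries, and 8 of 8 mice were higher (log2 change 0.71, SE 0.16, limma adjusted p = 0.00539). Without diabetic baseline replicate 4 the change was 0.62 (limma adjusted p = 0.00488). A region 1.7 kb upstream of the start missed the threshold, at 0.48 (SE 0.16, limma adjusted p = 0.0585), and passed it with the mouse as a block (adjusted p = 0.0224). Without diabetic baseline replicate 4 its change was 0.33 (limma adjusted p = 0.0584). Its deposited fold ran the other way (log2 change -0.13, adjusted p = 0.528). The Traf1 start itself was hardly open: the region nearest to it, 140 bp inside the gene, was called in 2 diabetic IL-1β libraries and in no other.

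Birc3, unlike the other members, had a start region that passed the test with all libraries included. That region, chr9:7872515-7873349, had 72.2, 66.0, 70.4 and 64.8 scaled reads in control baseline libraries 1 to 4 and 85.9, 75.8, 85.7 and 97.1 with IL-1β. In diabetic mice it had 81.5, 78.5, 78.5 and 100.3 at baseline and 110.3, 88.8, 101.8 and 93.7 with IL-1β. The control groups were fully separate, and in diabetic mice the baseline library of replicate 4 stood inside the IL-1β range. The log2 change was 0.28 (SE 0.07, limma adjusted p = 0.0185), higher in 7 of 8 mice, and 0.32 (limma adjusted p = 0.00112) without that library. Its deposited fold was 9.53 ± 0.419 at baseline and 9.33 ± 0.625 with IL-1β (SD, n = 8; log2 change 0.11, limma adjusted p = 0.404 after scaling). A far downstream region had a change of 0.06 (limma adjusted p = 0.722). It lies 9920 bp beyond the end of Birc3, near the edge of the 10 kb window. The region is also counted for the relative Birc2, so its assignment to Birc3 rests on distance alone.

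Cyld and Tank showed no region past the threshold with all libraries included. Cyld, the tumour suppressor deubiquitinase, had a broadly open start, chr8:88696357-88697645, with 112.4 to 165.7 scaled reads at baseline (median 137.6) and 136.5 to 161.1 with IL-1β (median 144.4). Its change was 0.12 with a 95% interval from -0.03 to 0.27 (limma adjusted p = 0.345), and the region lies within 10 kb of Nod2 too. Tank has 2 clusters of RefSeq starts. The upstream one, chr2:61578385-61578882, had 21.2, 20.05, 21.7 and 17.7 scaled reads in control baseline libraries and 29.4, 23.0, 26.2 and 23.8 with IL-1β, with no overlap. In diabetic mice it had 17.1, 19.6, 16.02 and 45.1 at baseline and 27.6, 27.1, 18.4 and 32.9 with IL-1β, the fourth baseline library being the highest of all 16. The change was 0.28 (SE 0.18, limma adjusted p = 0.37), and 0.45 (SE 0.14, limma adjusted p = 0.0247) without that library. The downstream one, chr2:61592775-61594217, was measured at 0.13 (limma adjusted p = 0.408) with it and 0.21 (limma adjusted p = 0.0275) without it.

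**Figure D2:**
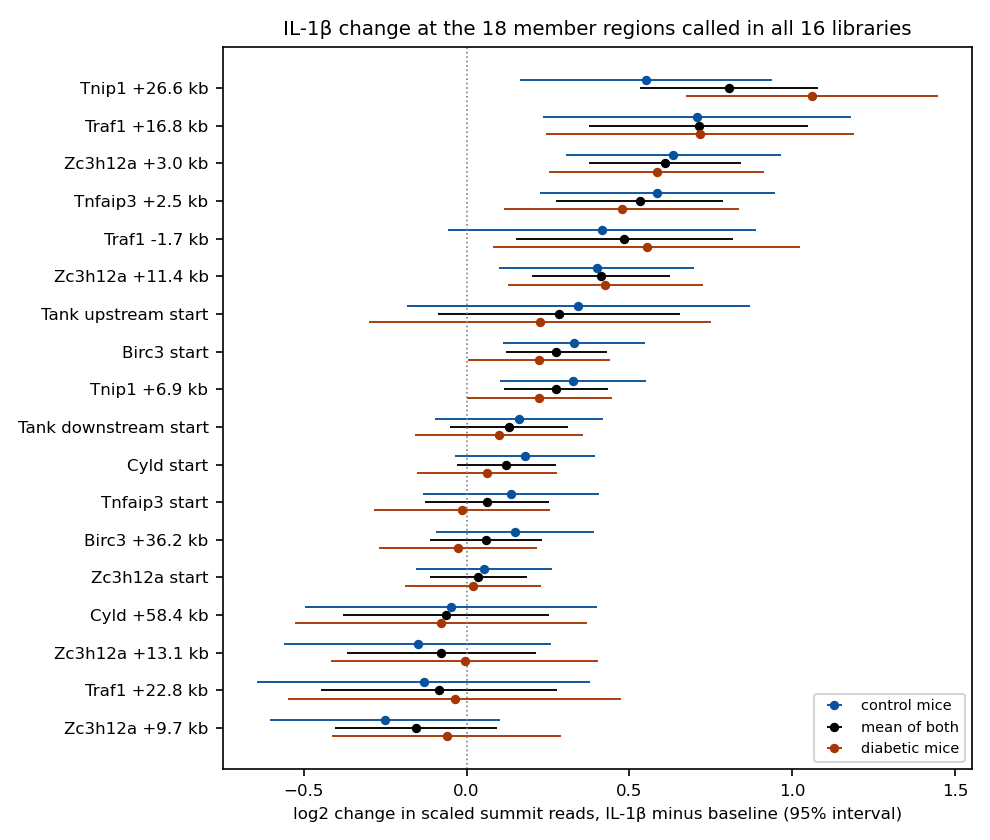
Log2 change in scaled summit reads after IL-1β (horizontal axis) for the 18 member regions called in all 16 libraries, in control mice (blue), diabetic mice (brown) and as their mean (black), with 95% intervals from limma. Regions inside Tnip1, Traf1, Zc3h12a and Tnfaip3 lead, and the intervals of both phenotypes overlap at every region.

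By position, 1 of the 6 fitted regions that covered a start rose, that of Birc3, and 6 of the 12 away from a start. Over all regions 3.02% of those on a start and 8.18% of those away from one rose. The median change was 0.13 at the members' starts and 0.34 away from them, beside 0.04 and 0.01 over all regions on and away from a start. For a member region only starts of its own gene counted, so one over another gene's start falls among those away. The contrast in counts depended on diabetic baseline replicate 4. Without that library 3 of 6 start regions rose, those of Birc3 and both Tank starts, as did 6 of 12 away from a start. The shares over all regions were then 10.7% and 11.3%. The medians kept their order, at 0.18 on the members' starts and 0.31 away, beside 0.07 and 0.01 over all regions. All 5 fitted regions inside a gene body rose, as did 1 of the 6 downstream ones, and the single upstream one did not pass. Those 5 lay in Tnip1, Traf1, Zc3h12a and Tnfaip3. Shares over all regions inside bodies, downstream or upstream were not counted, only the 8.18% for all regions away from a start. The 95% interval of the Zc3h12a start ran from -0.11 to 0.18 and that of the Tnfaip3 start from -0.13 to 0.25.

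**Figure D3:**
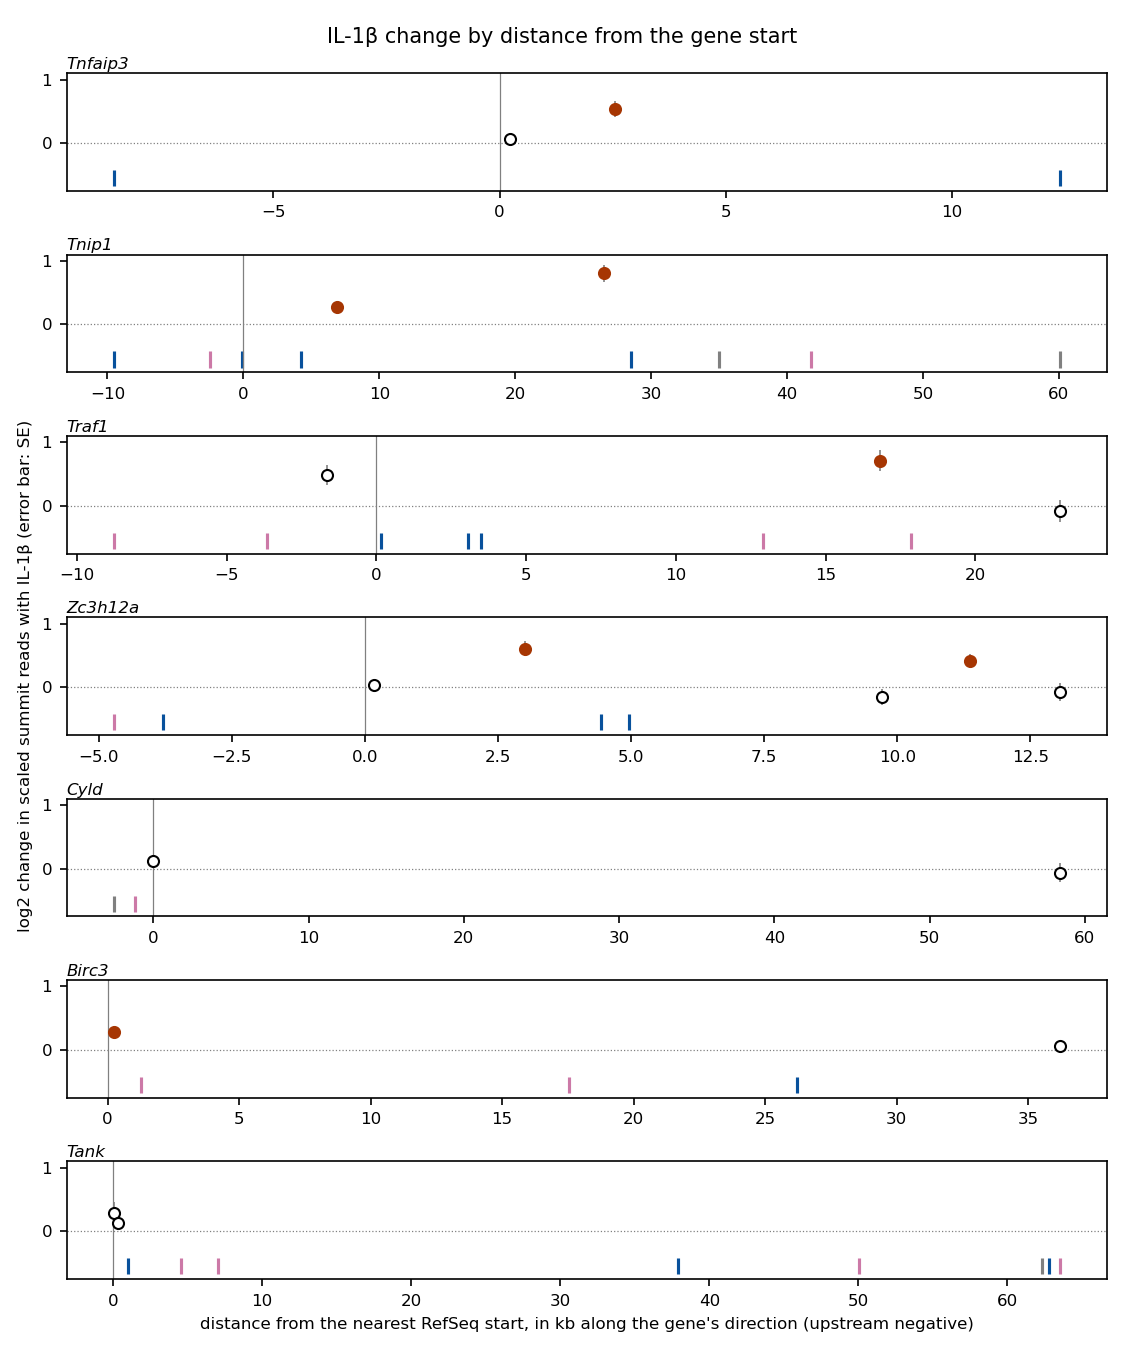
Log2 change after IL-1β (vertical axis, error bar SE) against the distance from the nearest gene start in kb (horizontal axis, upstream negative, scale differing by gene). Filled points rose at an adjusted p of 0.05, open points did not, and ticks mark regions not called in all libraries, with more IL-1β calls in blue, fewer in pink and equal in grey. Of the 7 filled points only that of Birc3 lies at a start, and without diabetic baseline replicate 4 both Tank starts would be filled as well.

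The phenotypes were compared next. In control mice 1 of the 18 regions rose, the Zc3h12a region 3.0 kb inside the gene (log2 change 0.64, SE 0.16, limma adjusted p = 0.0298), against 1.78% of all regions. In diabetic mice 2 rose, that region (0.58, SE 0.16, limma adjusted p = 0.047) and the Tnip1 region (1.06, SE 0.19, limma adjusted p = 0.00254), against 2.19% of all regions. Without diabetic baseline replicate 4 the Tnip1 change in diabetic mice was 0.77 (limma adjusted p = 0.000227). With the mouse as a block the counts were 4 in control mice, with 3.63% of all regions, and 3 in diabetic mice, with 4.16%. The 3 added in control mice were Tnfaip3 (limma adjusted p = 0.0364), Tnip1 (0.04) and Traf1 16.8 kb inside (0.036), and the last was also the one added in diabetic mice (0.032). Its unblocked change in diabetic mice was 0.72 with diabetic baseline replicate 4 and 0.53 without it (limma adjusted p = 0.101 and 0.208). Leaving out diabetic baseline replicate 4, which enters the shared estimate of spread, gave 6 in control mice, with 4.14% of all regions. At an unadjusted p of 0.05, 7 of the 18 were higher in each phenotype, where 15.3% of all regions in control and 13.9% in diabetic mice differed in either direction.

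No difference between the phenotypes passed the test. For the difference of the IL-1β change, for diabetic against control at baseline and for the same after IL-1β, 0 of 18 member regions and 0% of all regions were called in limma. At an unadjusted p of 0.05 the first comparison had 0 of the 18 regions, the second 3 and the last 0, beside 1.67%, 11.8% and 4.35% of all regions, so that 3 of 18 at baseline is near the overall share. The largest difference in the IL-1β change was at the Tnip1 region, where diabetic mice exceeded control mice by 0.51 (SE 0.26, 95% interval from -0.04 to 1.06, limma adjusted p = 0.9998). Without diabetic baseline replicate 4 it was 0.22 (SE 0.16). At baseline that region was lower in diabetic mice by 0.51 on the log2 scale, a change of -0.51 (SE 0.19, limma adjusted p = 0.423), and by -0.23 (SE 0.12) without that library. The neutrophil, monocyte and erythroid marker regions given above moved with the same library, but not only with it. For diabetic against control at baseline their medians were -0.35, -0.19 and 0.43. After IL-1β, a comparison without that library's group, they were -0.19, -0.02 and 0.25. There 15 of 15 erythroid and 3 of 26 neutrophil regions lay above 0, and 0 of them passed the test. The part of these marker differences in the members' values was not tested. The other 2 at baseline were the Birc3 start, higher in diabetic mice by 0.30, and the downstream region shared with Birc2, by 0.29 (limma adjusted p = 0.423 for both). Without diabetic baseline replicate 4 these were 0.22 and 0.13 (limma adjusted p = 0.966 for both). The 95% intervals of the 18 differences reached from -0.86 to 1.06, a width that covers changes of the size seen with IL-1β itself.

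The 34 member regions that were not called everywhere show gains and losses of peaks. With IL-1β 16 of them had more calling libraries, 14 fewer and 4 the same number. No region passed Fisher's exact test after adjustment, among the members or among all 83972 regions (0%). At an unadjusted p of 0.05 there were 3 gained member regions, where 1.1% of all regions were gained, and 7 lost, where 3.03% were lost. These shares are of all 83972 regions, including the 24955 called in every library, which cannot gain or lose calls. They are therefore lower than shares of the partly called regions alone. The gains were near Zc3h12a and Traf1. A region 3.8 kb upstream of Zc3h12a, chr4:125131542-125131825, went from 0 of 8 to 6 of 8 libraries (two-sided Fisher's exact p = 0.00699, adjusted p = 0.664), with calls in all 4 diabetic and 2 of 4 control IL-1β libraries. A region 5.0 kb inside Zc3h12a, also within 10 kb of Meaf6, and the Traf1 neighbour described above each went from 3 to 8. A Tnip1 region 4.2 kb past the start, called in 0 baseline and 4 IL-1β libraries, did not pass (exact p = 0.0769).

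Losses were spread over 5 genes. In Tank a region 50.0 kb past the downstream start, chr2:61643032-61643318, went from 8 of 8 to 2 of 8 libraries (exact p = 0.00699, adjusted p = 0.664), and one 4.5 kb past the upstream start from 7 to 1 (exact p = 0.0101). A region 3.7 kb upstream of Traf1 and one 1.2 kb upstream of Cyld each went from 5 to 0, with 4 of the 5 baseline calls in control mice. A Birc3 region 1.3 kb past the start and 2 Tnip1 regions, 41.8 kb inside the gene and 2.5 kb upstream, each went from 7 to 2. The Tank region at 50.0 kb was weak, with 8.19 ± 2.1 scaled reads at baseline (SD, n = 8), while that of Cyld had 28.8 to 35.1 in its 5 calling libraries. The baseline libraries held 46323 to 67481 called regions and the IL-1β libraries 34860 to 62624. With all lists brought to equal length there were 4 gains and 1 loss at an unadjusted p of 0.05, where 1.48% of all regions were gained and 0.991% lost. At a −log10 q of at least 5 there were 1 gain and 2 losses, where 0.66% of all regions were gained and 2.86% lost.

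**Figure D4:**
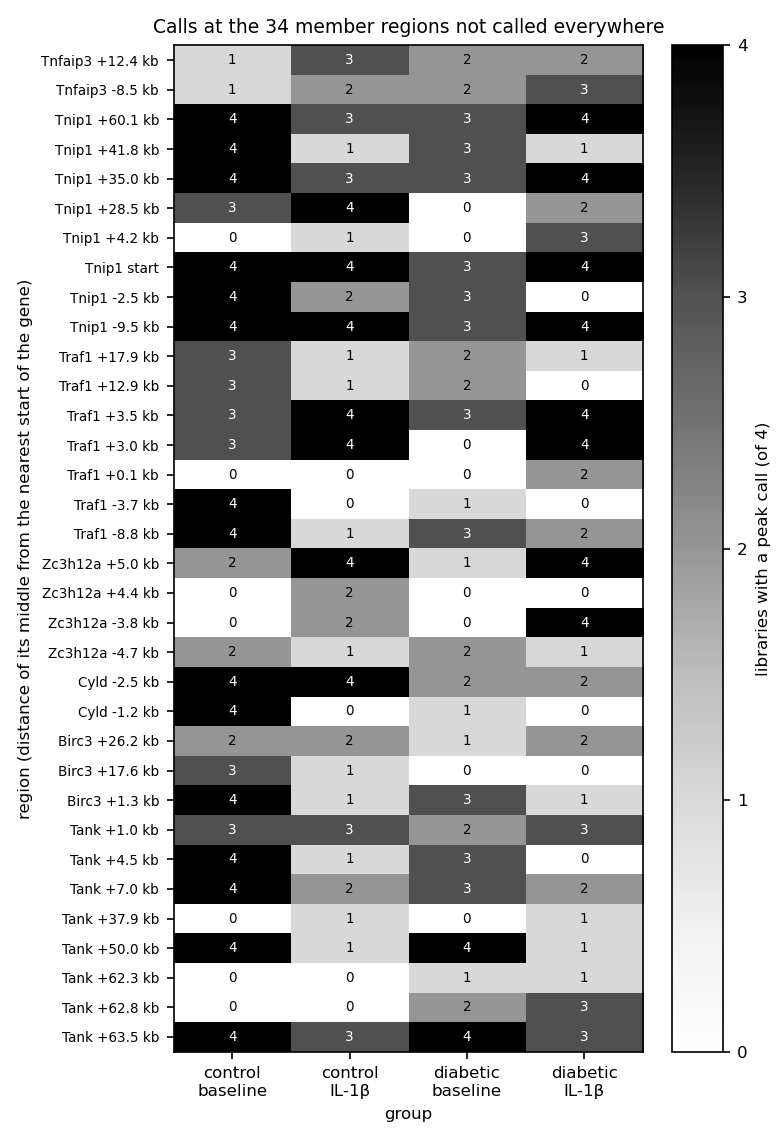
Number of libraries with a peak call (shade and number, of 4) in each group (columns) for the 34 member regions not called in all 16 libraries (rows, named by gene and distance of their middle from the nearest start). The region 3.8 kb upstream of Zc3h12a goes from 0 to 2 and from 0 to 4, and that of Tank at 50.0 kb from 4 to 1 in both phenotypes.

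Per gene, the called regions of each library were divided by its total of called regions. Those totals ranged lower with IL-1β, so a gene with an unchanged count can have a higher rate there. Traf1 had 6.88 called regions at baseline and 6 with IL-1β, yet 0.119 and 0.122 per 1000. Tnip1 had 7.63 and 7.5, yet 0.132 and 0.154 per 1000. Cyld, Birc3 and Tank were lower with IL-1β by both measures. Zc3h12a had 5.88 ± 0.641 called regions at baseline and 7.25 ± 0.886 with IL-1β (SD, n = 8), which is 0.103 and 0.148 per 1000 called regions. Tnfaip3 had 2.75 ± 0.707 and 3.25 ± 0.707, or 0.0479 and 0.0651 per 1000. Both reached the smallest p that the 4900 label assignments allow, 0.000408 in a two-sided exact permutation test, but not after adjustment over 11769 genes (0.0658). They were 2 of the 7 members, and 10.9% of all genes were higher at an unadjusted p of 0.05. The part of the shorter lists in these 2 differences was not tested apart from the equal lists below. After adjustment 0 of 7 members and 0% of all genes passed. Tank had 6.75 ± 1.04 called regions at baseline and 5.13 ± 1.25 with IL-1β, 0.120 and 0.103 per 1000 (exact permutation p = 0.123). With lists of equal length Zc3h12a passed, with an exact permutation adjusted p of 0.0471, among 102 genes. The difference at Tnfaip3 was then 0.0078 per 1000 in place of 0.0172 (exact permutation p = 0.0257, adjusted p = 0.190). That at Traf1 was 0.0469 in place of 0.0036 (exact permutation p = 0.000816, adjusted p = 0.0506).

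The deposited fold ordered the members by their starts. In control baseline libraries the group means at the start regions were 11.97 at Tnfaip3, 11.7 at Cyld, 10.5 at the downstream Tank start, 9.20 at Birc3, 8.33 at Zc3h12a, 7.97 at the upstream Tank start and 4.72 at Tnip1. With IL-1β the control means were 11.7, 11.6, 10.8, 9.04, 7.83, 7.83 and 4.58. Neighbours in this order differ by less than their SDs in several cases, as with Tnfaip3 (SD 1.69) and Cyld (SD 0.831). In limma on the fold 2 of the 18 regions rose, with 3.92% of all regions, the Traf1 region 16.8 kb inside and the Zc3h12a region 3.0 kb inside.

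Other genes of the same pathways were counted from lists by role. Among genes of A20 partners and adaptors 0 of 9 fitted regions passed, the largest change being that of Tnip3, an A20-binding relative of Tnip1 (0.34, limma adjusted p = 0.125). Without diabetic baseline replicate 4, 1 of the 9 rose and 1 fell. Among other deubiquitinases and the CYLD partner Spata2, 1 of 10 rose and 0 fell, in Otulin, which cuts linear ubiquitin chains (0.51, limma adjusted p = 0.0455). Among TRAF, IAP and linear ubiquitin ligase genes 2 of 19 rose and 1 fell, all in Traf3, with changes of 0.35 (limma adjusted p = 0.00361), 0.21 and -0.34. Among genes of RNA decay 2 of 23 rose and 0 fell, both in Zfp36l2, an RNA-binding protein that promotes decay, the larger by 0.48 (limma adjusted p = 0.000117). With the mouse block 4 of the 23 rose, and without diabetic baseline replicate 4 there were 5 that rose and 1 that fell. Among the TANK-binding kinases and adaptors 0 of 13 rose and 1 fell, in Tbk1 (-0.53, limma adjusted p = 0.0327). Without diabetic baseline replicate 4, 1 of the 13 rose and 2 fell. The shares are to be read beside the 6.42% of all fitted regions that rose and the 3.4% that fell. Without diabetic baseline replicate 4, 2775 of all 24955 rose (11.1%) and 1473 fell. The medians of these lists lay between -0.01 and 0.06, beside 0.03 over all regions and 0.20 for the 18 member regions. Members and lists were chosen with earlier results of these data known, so these values are a description.

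The regions most like each gene's leading region were found by Pearson's r of log2 scaled reads over the 16 libraries, which share the same groups and depth. The Tnip1 region was matched best by regions in Atp2c2 and Iqgap1 (r = 0.96 for both), and that of Zc3h12a by regions in Vps13d and near Rap2b (r = 0.90 for both). For Tnfaip3 they were in Tfeb and Spred2 (r = 0.88 for both), and for Traf1 near Gpr157 (r = 0.94) and Ptger2 (r = 0.91). The Birc3 start was matched by regions in Phldb3 (r = 0.93) and in Tnip3 (r = 0.91), the Cyld start by regions in Yif1b and P4hb (r = 0.97 for both), and the upstream Tank start by regions in Akap12 (r = 0.91) and near Slc9a9 (r = 0.84).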

How the data were processed

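The data were 16 ATAC-seq peak lists. Per the submitters' processing notes, MACS2 2.1.1, Bowtie2 2.2.6 and the mm10 build were used, along with DiffBind 2.4.8, edgeR, FastQC 0.11.3 and Trim Galore 1.8. The role of each is not given there. Each deposited list gives, as the authors' peak caller wrote them, a score, a fold (a ratio over local background), a −log10 p-value and a −log10 q-value per summit.

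Peaks of all libraries that overlapped or touched were joined with bedtools 2.31.1, and a joined region was used where 2 or more libraries called it. Whole reads per summit were solved from the deposited fold and −log10 p (tolerance 0.001), which succeeded for 99.999% to 100% of summits. The highest summit per region was taken as log2 reads, scaled so that every library had the same median, and compared with limma 3.58.1 (R 4.3.3; 4 group means, trended variance). p-values were adjusted by Benjamini-Hochberg over 24955 regions, with a threshold of 0.05. Calls per region were compared by Fisher's exact test. Called regions per gene were compared by an exact permutation test within phenotype (scipy 1.17.1, Python 3.11.15). Gene bodies and starts are those of the RefSeq table (GRCm38.p6).

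The named regions of each gene were those past the threshold, the region at or nearest its start, its region of largest change in all 16 libraries, and its partly called region with the largest difference in calls. The members and lists were chosen with earlier results of these data known. Per the series design the baseline and IL-1β portions came from the same samples, so equal replicate numbers within a phenotype name portions of 1 mouse sample. As a check, the 2 portions' differences from their group averages had correlations of 0.42, 0.36, 0.01 and 0.07 in control samples 1 to 4, and by 0.40, 0.19, -0.04 and 0.33 in diabetic samples 1 to 4. The alternatives were 2 other scalings, regions in at least 12 libraries, a mouse block, summed summits, the deposited fold, a pseudocount of 8, windows of 2 kb and 50 kb, stricter or equal-length lists, and each library left out. The scripts were tested on simulated data. Arms of 4 libraries limit the precision, and total reads per library are not given in the sources used here.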

Additional observations from a re-analysis of the deposited data

Results flagged for a closer look

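In 4 of 48 groups of 4 libraries tested over 12 named regions, 1 library lay far from the other 3 (its gap to them filled most of the group's range, by Dixon's test at 95%). Chance alone flags about 1 group in 20. The library was diabetic baseline replicate 4 each time. At the Tnip1 region 26.6 kb inside the gene it had 15.99 scaled reads, where the other 3 had 34.2 to 36.9. At the Traf1 region 16.8 kb inside the gene it had 11.6, from 8 whole reads, where the others had 19.1 to 20.6. At the Birc3 start it had 100.3, where the others had 78.5 to 81.5. At the upstream Tank start it had 45.1, where the others had 16.02 to 19.6. This library also had the lowest background and the lowest median of unscaled summit reads. It had fewer reads at mature neutrophil and monocyte marker regions and more at erythroid ones than the other baseline libraries. The part of these in the 4 values was not tested.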

How the results depend on the processing

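Of 414 values of single regions under the alternatives, 374 kept their direction and side of the threshold, 16 fell below it, 8 rose above it and 16 reversed; of the 7 regions that rose, only the Tnip1 region at 6.9 kb reversed, in the deposited fold. The count of regions that rose over both phenotypes, 7, was 1 under background scaling, 2 in the deposited fold and 6 to 9 with 1 library left out. In control mice the count of 1 became 0 under background scaling and in the deposited fold, 3 with regions in at least 12 libraries, 3 with a pseudocount of 8, 4 with the replicate block, and 0 to 6 with 1 library left out (0 without control baseline replicate 1, 2 or 4 or control IL-1β replicate 1 or 4, and 6 without diabetic baseline replicate 4). In diabetic mice the count of 2 became 0 under background scaling and in the deposited fold, 1 under cyclic loess, 1 for summed summits, and 1 to 2 with 1 library left out. With the replicate block 2 B cell marker regions rose in place of 1; its other changes to the counts over both phenotypes stand in the report. It cannot be fitted between phenotypes or in Fisher's test, and by sign flips within mice 0 of 7 genes passed. Gained regions fell from 3 to 1 at a −log10 q of at least 5; lost regions fell from 7 to 2 there and to 1 with equal lists, where 1 gene passed in place of 0. Without 1 library 3 to 4 were gained and 7 to 9 lost. Reversed values were, under background scaling, Tnfaip3 start -0.21, Zc3h12a start -0.23, Cyld start -0.15, Birc3 downstream -0.21 and downstream Tank start -0.14. Under cyclic loess they were Tnfaip3 start -0.015, Zc3h12a start -0.045 and Birc3 downstream -0.021. In the deposited fold they were Tnip1 at 6.9 kb -0.091, Traf1 upstream -0.13 and Zc3h12a start -0.032. For summed summits they were Traf1 downstream 0.12 and Birc3 downstream -0.12, and Cyld downstream was 0.0074 with a pseudocount of 8, and 0.0030 without control IL-1β replicate 2 and 0.0051 without diabetic IL-1β replicate 1. The causes were not tested. Regions with under about 20 reads limit what small changes can be seen.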
